A study of Mus musculus with 9 samples.

Results

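B-cell transcripts were followed through 9 RNA sequencing libraries of sorted mouse neutrophils. The 8 genes are Cd79a, Cd79b, Cd22, Blk, Ms4a1, Fcer2a, Pax5 and Ebf1, chosen by symbol from the 24532 genes of the deposited count table, and each library was read singly. All 8 were among the 13510 genes that passed the filter on low counts. The neutrophils came from lung (3 libraries), blood (3 libraries) and bone marrow (3 libraries) of wild-type C57BL/6 mice and were sorted on a FACS Aria III. No group carried a treatment or a mutant allele. The sources used here give neither the animals' age, nor any pooling, nor the markers and gates of the sort. The titles number the libraries 1 to 3 in each tissue and name no animal, so p-values measure the spread between these samples, which may in part be technical.

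B cells recognise antigen through a membrane immunoglobulin. It is held in a complex with the CD79A and CD79B chains, whose cytoplasmic tails start the signal inside the cell. Pax5 and Ebf1 are the transcription factors that establish and keep the B-cell programme, and both act on the Cd79a gene. B cells are made in the bone marrow, where precursors rearrange their immunoglobulin genes with the Rag recombinase, and mature cells then leave for blood and lymphoid organs. Neutrophils carry no B-cell receptor.

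The libraries held 42045548 to 56796219 reads and resembled their label in neutrophil genes. The neutrophil list, 18 genes led by S100a9, Csf3r, S100a8 and Retnlg, summed to 30757 to 56299 CPM (read counts set against the TMM-scaled library total) in lung, 33411 to 47709 CPM in blood and 117563 to 167657 CPM in bone marrow. In each tissue replicate 3 had the highest neutrophil sum and stood apart from the other two. Bone marrow replicate 3 also held lung epithelial transcripts. The 10-gene list summed to 72.8 CPM there, against 14.3 and 8.19 CPM in bone marrow replicates 1 and 2. It summed to 894, 278 and 64.7 CPM in lung and 2.11, 9.16 and 1.34 CPM in blood, replicates 1 to 3. Bone marrow replicate 3 thus lay above lung replicate 3 in this list.

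The 8 genes together made up a small share of every library. Their summed level was 390.1, 351 and 38.6 CPM in lung replicates 1 to 3, 363 CPM, 354 CPM and 59.1 CPM in blood replicates 1 to 3, and 96.0 CPM, 54.3 CPM and 25.9 CPM in bone marrow replicates 1 to 3. Replicate 3 was the lowest library of its tissue each time. The sums rested on 21480, 17623 and 1555 reads in lung, 16656, 20351 and 2609 reads in blood, and 4026, 2771 and 1013 reads in bone marrow. In bulk RNA, fewer B cells and less RNA per B cell cannot be told apart.

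**Figure D1:**
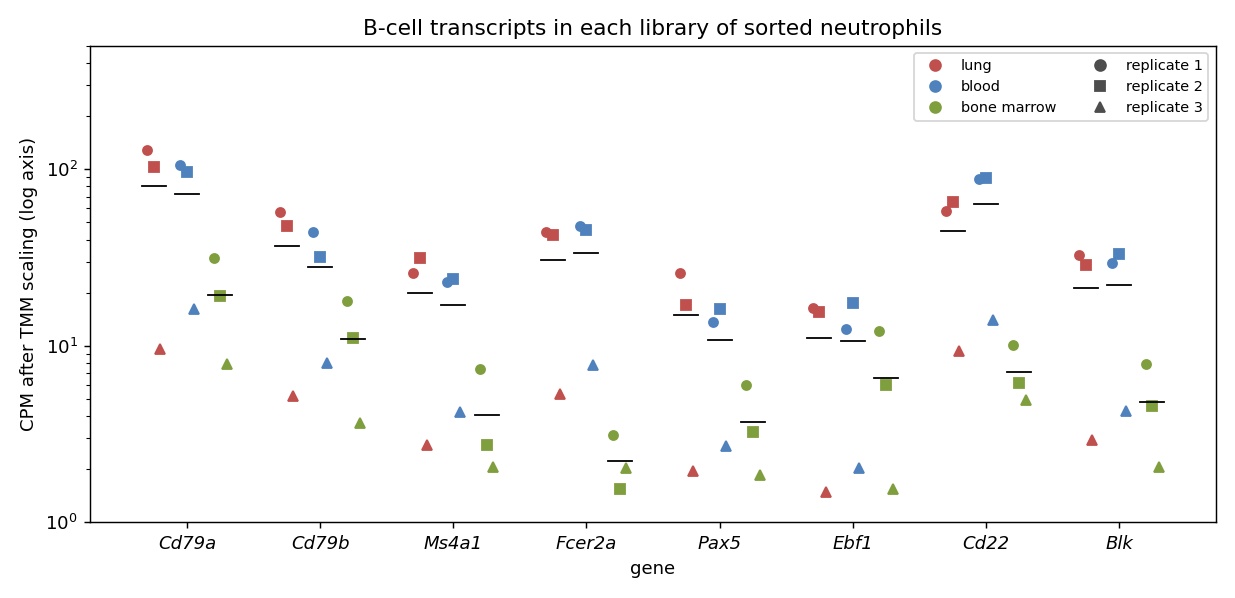
Level of the 8 B-cell transcripts in each library, in CPM on a log axis, with lung, blood and bone marrow from left to right within each gene, marker shapes for replicates 1 to 3 and a bar at the mean of 3. Replicate 3, drawn as a triangle, is the lowest point of its tissue for every gene except Fcer2a in bone marrow, where replicate 2 is lowest.

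The signalling chains of the receptor were the most abundant of the 8. Cd79a lies on chromosome 7 at chr7:24897511-24902197 (mm10, plus strand, Entrez gene 12518), and the deposited table lists 1 transcript of 1327 bases for it. It stood at 129, 103 and 9.56 CPM in lung, at 105, 96.8 and 16.1 CPM in blood and at 31.5, 19.0 and 7.85 CPM in bone marrow, replicates 1 to 3. The first 2 libraries of lung and blood were all above the highest bone marrow library, while replicate 3 of lung and of blood lay below it, so the tissues overlapped. Its partner Cd79b (chr11:106311341-106314562, minus strand, gene 15985) stood at 57.5, 47.7 and 5.19 CPM in lung, at 44.3, 32.0 and 8.02 CPM in blood and at 17.9, 11.1 and 3.66 CPM in bone marrow. As for Cd79a, replicate 3 was the lowest library of each tissue. Per length, on the deposited FPKM scale, Cd79a ranked 1 and Cd79b ranked 2 among the 8 genes in each of the 9 libraries. Cd79a had 112 FPKM in lung replicate 1, the highest value of the set, and 4.47 FPKM in bone marrow replicate 3.

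The promoter of Cd79a is shown because Ebf1 and Pax5, themselves among the 8 genes, are known to act on it. The window holds 250 bases before and 50 after the RefSeq start (GRCm38.p6, plus strand, chr7:24897247-24897546), and capitals mark the motif matches.
Cd79a promoter: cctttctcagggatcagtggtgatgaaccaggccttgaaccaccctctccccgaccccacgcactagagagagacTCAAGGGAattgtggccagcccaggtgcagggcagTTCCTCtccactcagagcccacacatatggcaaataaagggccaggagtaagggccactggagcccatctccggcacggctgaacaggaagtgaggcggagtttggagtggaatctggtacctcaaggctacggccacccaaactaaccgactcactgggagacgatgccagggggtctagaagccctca
The first run of capitals, TCAAGGGA, begins 175 bases before the start and is a near-match of the palindromic Ebf1 consensus. It was searched after the sequence had been read, and 1.01% of 32851 RefSeq promoter windows of the same length hold it on either strand. The second, TTCCTC, begins 140 bases before the start and is the reverse complement of GAGGAA, a core bound by PU.1 and Spib, which 28.3% of windows hold. The full consensus was not found in this window.

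Cd22 and Blk act beside the receptor. Cd22 encodes a sialic acid-binding lectin that dampens receptor signalling, and it lies at chr7:30865404-30880342 (minus strand, gene 12483), where an antisense gene, Gm29439, overlaps it. It stood at 58.2, 65.7 and 9.39 CPM in lung, at 87.8, 89.3 and 14.0 CPM in blood and at 10.1, 6.15 and 4.91 CPM in bone marrow. Every blood library was above every bone marrow library, while lung replicate 3 fell just below bone marrow replicate 1. Blk, a Src-family kinase of B cells (chr14:63372837-63417187, minus strand, gene 12143), stood at 32.7, 28.5 and 2.93 CPM in lung, at 29.3, 32.9 and 4.26 CPM in blood and at 7.84, 4.55 and 2.05 CPM in bone marrow. The tissues overlapped through replicate 3 of lung and blood.

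The Cd22 promoter is shown because it holds the palindromic Ebf1 consensus, in capitals, which begins 49 bases before the RefSeq start (GRCm38.p6, minus strand, chr7:30878979-30879278). The window lies inside the Cd22 locus given above, which ends at 30880342, so it is not at the outermost start of the gene.
Cd22 promoter: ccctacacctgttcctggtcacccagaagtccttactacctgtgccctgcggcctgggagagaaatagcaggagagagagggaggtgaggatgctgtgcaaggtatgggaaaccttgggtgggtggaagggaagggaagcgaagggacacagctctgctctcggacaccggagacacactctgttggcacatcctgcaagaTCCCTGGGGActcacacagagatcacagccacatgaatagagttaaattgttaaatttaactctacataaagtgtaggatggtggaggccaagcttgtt
Among the 32851 windows 0.904% hold the consensus on either strand, and 13.7% hold its core CCCNNGGG, which the longer consensus contains. The promoter table had 8 windows for 5 of the 8 genes. The octamer ATGCAAAT, found in 1.74% of all windows, was in none of them. In the 6 other windows GAGGAA was the single motif found, once, in 1 window of Ebf1. The letters are a description of these windows and no binding was measured.

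Ms4a1 and Fcer2a encode surface proteins of mature B cells. Ms4a1, which encodes CD20, lies at chr19:11250603-11266151 (minus strand, gene 12482), within an antisense gene, 4930526L06Rik. It stood at 25.8, 31.4 and 2.76 CPM in lung, at 23.0, 23.8 and 4.21 CPM in blood and at 7.34, 2.74 and 2.05 CPM in bone marrow. Lung replicate 3 lay level with bone marrow replicate 2. Fcer2a, which encodes CD23, the low-affinity IgE receptor of mature follicular B cells, lies at chr8:3681737-3694174 (minus strand, gene 14128). It stood at 44.1, 42.7 and 5.34 CPM in lung, at 47.5, 45.5 and 7.79 CPM in blood and at 3.12, 1.55 and 2.02 CPM in bone marrow. It was the single member for which every lung and every blood library lay above every bone marrow library. In bone marrow it also departed from the other 7 genes in that its lowest value was in replicate 2.

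The transcription factors stood lower in CPM than the receptor chains. Pax5 (chr4:44531506-44710440, minus strand, gene 18507) stood at 26.0, 17.1 and 1.96 CPM in lung, at 13.7, 16.1 and 2.70 CPM in blood and at 5.98, 3.23 and 1.84 CPM in bone marrow. The table lists 1 Pax5 transcript of 1208 bases. Its counts were 0.406 to 0.789 times the expected counts that the blood and lung libraries' own files give for the gene, whereas the other 7 genes had 1.42 to 2.24 times, and whole libraries 1.87 to 1.90 times. Its level relative to the other members thus differs between the authors' files. Ebf1 (chr11:44618100-45008096, plus strand, gene 13591) stood at 16.4, 15.5 and 1.49 CPM in lung, at 12.5, 17.4 and 2.04 CPM in blood and at 12.1, 5.98 and 1.53 CPM in bone marrow. Bone marrow replicate 1 was level with blood replicate 1, and the tissues overlapped. Per length Ebf1 ranked 8 of 8 in every lung and blood library. In bone marrow replicates 1 and 2 the lowest rank went to Fcer2a, at 1.30 and 0.599 FPKM, against 2.1 and 0.994 FPKM for Ebf1. Cd22, Pax5, Ms4a1 and Blk lay between, and changed places between replicates of 1 tissue.

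Within each tissue the replicates lay far apart. The highest library exceeded the lowest by 7.0 to 13.5 times in lung, 5.52 to 8.52 times in blood and 2.02 to 7.89 times in bone marrow over the 8 genes. Replicate 3 was the lowest of its tissue for 8 of 8 genes in lung, 8 of 8 in blood and 7 of 8 in bone marrow. Of all 13510 genes tested, 18.9% were lowest in replicate 3 of every tissue, against 7 of the 8 members. A stricter measure, at least 2-fold below both other libraries in every tissue after adding 0.5 CPM, was met by 3 members (Cd79a, Cd79b and Ebf1) and by 1.88% of all genes. Of 27 other B-cell genes in the table, 19 were lowest in replicate 3 of every tissue. The 8 exceptions were Cd37, Cd55, Fcrl1, Bank1, Fcmr, Cr2, Rasgrp3 and Fcrl5. Cd37, a tetraspanin, was highest in replicate 3, with 263, 264 and 338 CPM in lung, 314, 293 and 320.2 CPM in blood and 342, 361 and 482 CPM in bone marrow.

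Markers of T and NK cells and of erythroid cells were, like the members, lowest in replicate 3 of every tissue. Other lists differed. The 18 T and NK cell genes, led by Tcf7, Lck, Cd2 and Cd3d, summed to 211, 237 and 33.6 CPM in lung, 70.7, 211 and 34.1 CPM in blood and 159, 171 and 50.6 CPM in bone marrow. Blood replicate 1 was low in this sum while its B-cell sum was the highest of blood. The 10 erythroid genes, led by Hba-a2, Hbb-bs, Hba-a1 and Alas2, summed to 432, 345 and 33.4 CPM in lung, 8813, 6117 and 822 CPM in blood and 8601, 9411 and 1721 CPM in bone marrow. The 12 stromal genes, led by Col3a1, Col1a1, Col1a2 and Dcn, summed to 1913, 1530 and 121 CPM in lung, 45.8, 9.96 and 9.42 CPM in blood and 43.3, 52.9 and 189 CPM in bone marrow. The last of these, bone marrow replicate 3, was the highest of its tissue, unlike its B-cell sum. Monocyte genes, led by Nr4a1 and Csf1r, were between 1802 and 3647 CPM in all 9 libraries. Replicate 3 was their highest library in lung (3647 CPM) and bone marrow (2369 CPM) and their lowest in blood (1872 CPM). The 10 platelet genes summed to 33.0, 32.6 and 36.4 CPM in lung and 28.3, 72.0 and 62.3 CPM in blood. In bone marrow they summed to 28.7, 28.6 and 101 CPM. Replicate 3 was in no tissue the lowest library for platelets. These lists share libraries with the members, and their part in the members' levels was not tested.

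**Figure D2:**
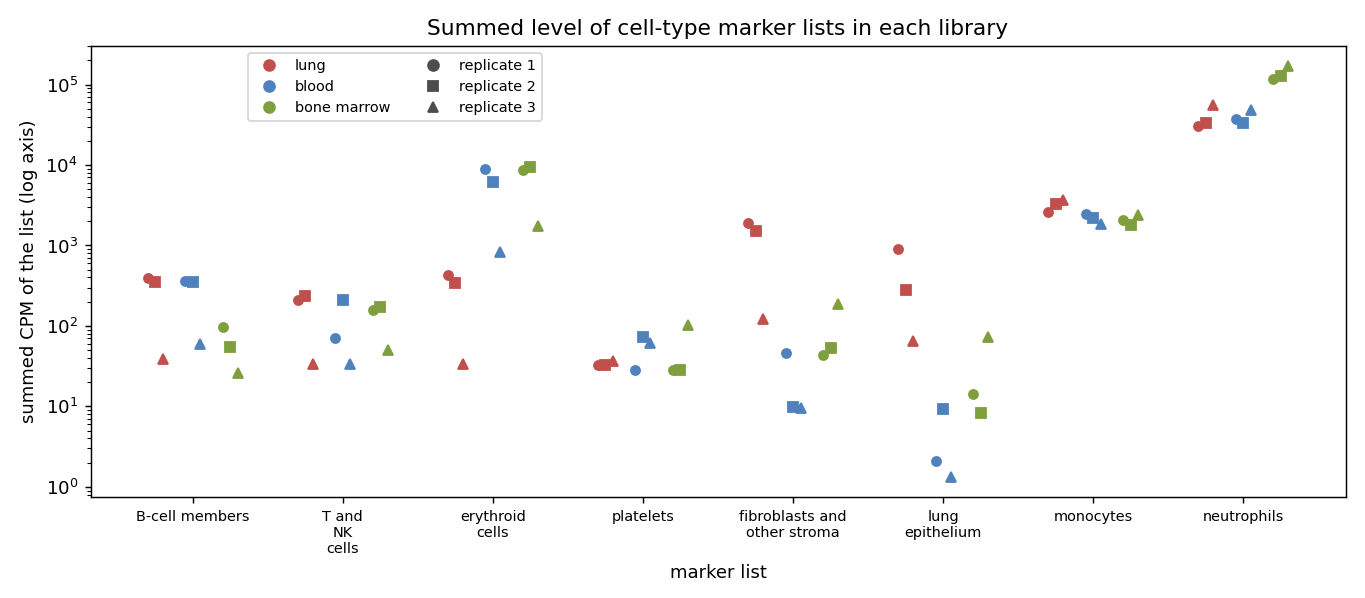
Summed CPM of 8 marker lists in each library, on a log axis, with lung, blood and bone marrow from left to right and marker shapes for replicates 1 to 3. In every tissue replicate 3 is lowest for B cells, for T and NK cells and for erythroid cells and highest in the neutrophil list, where it reaches 56299 CPM in lung, 47709 CPM in blood and 167657 CPM in bone marrow.

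In lung over blood, no difference in the 8 genes passed the test. EdgeR called 0 of 8 at an adjusted p under 0.05, with 0 of 8 at an unadjusted p under 0.05, while 28.9% of all genes were called, 13.2% higher and 15.7% lower. DESeq2, limma-voom, the replicate block and replicates 1 and 2 alone also called 0 of 8, where 18.3%, 9.09%, 15.3% and 22% of all genes were called higher. Log2 fold changes lay between -0.52 (Cd22, SE 0.78) and 0.47 (Pax5, SE 0.88), with a median of 0.11 beside 0.05 for all genes. Cd22 averaged 44.4 ± 30.6 CPM in lung and 63.7 ± 43.1 CPM in blood (SD, n = 3 each), so the spread within a tissue was larger than the difference. Standard errors over the 8 genes were 0.78 to 1.01 on the log2 scale, so a difference within that size was not detectable here, and larger ones could be missed. In lung over bone marrow, for example, Ms4a1 missed the threshold at a log2 fold change of 2.31 ± 0.94 (SE, edgeR adjusted p = 0.0826).

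In blood over bone marrow, CD23 and CD22 transcripts were higher in blood. Fcer2a averaged 33.6 ± 22.4 CPM in blood and 2.23 ± 0.81 CPM in bone marrow (SD, n = 3 each), a log2 fold change of 3.91 ± 0.90 (SE; edgeR adjusted p = 0.0160). Cd22 averaged 63.7 ± 43.1 CPM in blood and 7.07 ± 2.73 CPM in bone marrow, a log2 fold change of 3.17 ± 0.85 (edgeR adjusted p = 0.0289). These were 2 of 8 members called higher and 0 lower, where 8.34% of all genes were called higher and 13.1% lower (21.4% in all), and the groups did not overlap for the same 2 members, where 19.8% of all genes were higher without overlap. The other 6 missed the threshold, at 0.70 ± 1.01 (Ebf1) to 2.20 ± 0.96 (Blk) on the log2 scale, and the median over all 8 was 1.98, beside -0.05 for all genes. The calls were sensitive to single libraries. Fcer2a lost its call without bone marrow replicate 2 or 3 (edgeR adjusted p = 0.0727 and 0.0634). Cd22 lost its call without blood replicate 1 or 2 (0.0732 and 0.0831) or bone marrow replicate 1, 2 or 3 (0.0646, 0.107 and 0.105). With the replicate number as a block, 6 of 8 passed (all but Pax5, at 1.31, adjusted p = 0.0725, and Ebf1, at 0.65, adjusted p = 0.169), where 12.1% of all genes were called higher. With replicates 1 and 2 alone, 7 of 8 passed (all but Ebf1, adjusted p = 0.145), where 11.9% were. This fit leaves out replicate 3, the lowest library of its tissue for most members, and with it part of the spread within a tissue. Its larger count is therefore no independent support for the calls. DESeq2 called 4 and limma-voom 0 of 8, where 11.8% and 7.68% of all genes were called higher.

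In lung over bone marrow, the same pair was higher in lung. Fcer2a averaged 30.7 ± 22 CPM in lung and 2.23 ± 0.81 CPM in bone marrow (SD, n = 3 each), a log2 fold change of 3.78 ± 0.90 (SE; edgeR adjusted p = 0.0111). Cd22 averaged 44.4 ± 30.6 CPM in lung and 7.07 ± 2.73 CPM in bone marrow, a log2 fold change of 2.65 ± 0.83 (edgeR adjusted p = 0.0339). This comparison shares its bone marrow libraries with the one above. The 2 of 8 members called higher, with 0 lower, stand beside 15.6% of all genes called higher and 22.6% lower (38.2% in all). Only Fcer2a, of the 8, had no overlap, where 20.1% of all genes were higher without overlap. Ebf1 had the smallest log2 fold change, 0.77 ± 1.01, and the median was 2.1, beside 0.06 for all genes. Fcer2a lost its call without bone marrow replicate 2 (edgeR adjusted p = 0.0524). Cd22 lost its call without lung replicate 1 or 2 (0.0868 and 0.0973) or bone marrow replicate 1, 2 or 3 (0.0645, 0.111 and 0.104). Without lung replicate 3, 7 of 8 passed, all but Ebf1, where 22.9% of all genes were called higher. That library was the lowest of lung for every member, so leaving it out narrows the spread within lung. With the replicate number as a block, 7 of 8 passed (all but Ebf1, at 0.58, adjusted p = 0.171), where 18.2% of all genes were called higher. The same number passed with replicates 1 and 2 alone, where 28.1% were, with the limit given above for that fit. DESeq2 called 6 and limma-voom 0 of 8, where 23.3% and 11.4% of all genes were called higher.

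**Figure D3:**
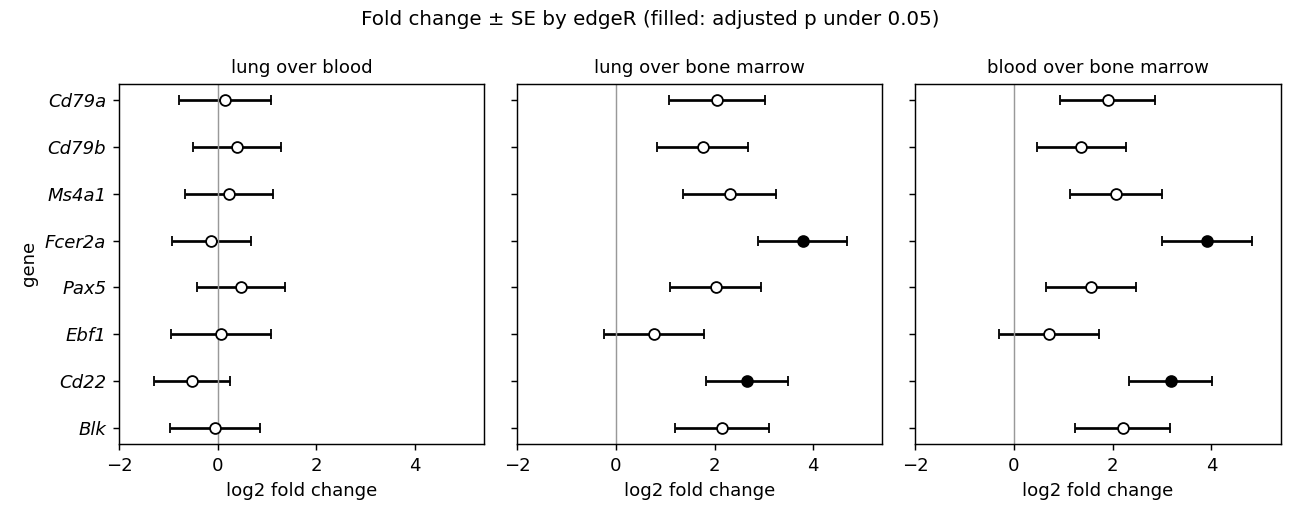
Log2 fold change of each gene by edgeR, with bars of 1 SE, for lung over blood, lung over bone marrow and blood over bone marrow, with filled points for an adjusted p under 0.05. Fcer2a and Cd22 are the filled points in both comparisons with bone marrow, at 3.78 and 2.65 in lung and 3.91 and 3.17 in blood.

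Each gene was also set against Cd79a in the same library, so that libraries of unlike B-cell transcript level could be read side by side. Blk changed least, at 25.2, 27.7 and 30.7 reads per 100 Cd79a reads in lung, 27.8, 34.0 and 26.5 in blood and 24.9, 23.9 and 26.1 in bone marrow. Lung overlapped both other tissues, and the lowest blood library was just above the highest bone marrow library. The 95% Wilson intervals of these libraries, 22.6 to 31.1 and 20.4 to 33.3, overlapped. Fcer2a had 34.1, 41.5 and 55.8 reads per 100 Cd79a reads in lung, 45.2, 47.0 and 48.5 in blood and 9.90, 8.14 and 25.7 in bone marrow. Every lung and blood library was above every bone marrow library, and bone marrow replicate 3 lay nearest to them, with a 95% Wilson interval of 20.1 to 32.9 that covers counting error only. Cd22 showed a like order, with 45.0, 63.9 and 98.2 in lung, 83.6, 92.3 and 87.0 in blood and 32.1, 32.3 and 62.5 in bone marrow. Its blood libraries were above all bone marrow libraries, and its lung libraries overlapped both tissues. With the expected counts of the lung and blood files, Cd22 had 57.9, 81.1 and 92.1 per 100 Cd79a counts in lung. In blood it had 76.4, 83.3 and 76.3. The table's Cd22 counts were 1.46 and 1.53 times the expected counts in lung replicates 1 and 2. They were 2.03 to 2.16 times in lung replicate 3 and in blood, so the lung values depend on the file.

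Ebf1 ran the other way. It had 12.7, 15.1 and 15.6 reads per 100 Cd79a reads in lung, 11.9, 17.9 and 12.7 in blood and 38.4, 31.4 and 19.5 in bone marrow. Every bone marrow library was above every lung and blood library, and replicate 3 was again the nearest, with an interval of 14.8 to 25.8. Pax5 was lower in every blood library (13.05, 16.6 and 16.8) than in every bone marrow library (19.0, 17.0 and 23.5). The nearest libraries, blood replicate 3 and bone marrow replicate 2, had overlapping intervals of 13.8 to 20.3 and 14.4 to 20.0. With the expected counts of the lung and blood files in place of the table's counts, Pax5 had 47.7, 58.7 and 64.4 per 100 Cd79a counts in lung and 57, 77.8 and 62.9 in blood. The files differ in both annotation and counting, so the source of this shift cannot be told apart. Over the 7 genes and 3 comparisons, 21 exact two-sided permutation tests were made, and 3 samples against 3 cannot go below p = 0.10. The lowest adjusted p was 0.30, reached by the 7 comparisons without overlap, so none passed. The share of all genes without overlap in their ratio to Cd79a was not computed. In CPM, 41.6% to 49.0% of all genes had no overlap in either direction over the 3 comparisons. On the log2 scale the mean ratio of Fcer2a differed by 1.88 in blood over bone marrow and by 1.75 in lung over bone marrow, and that of Ebf1 by -1.04 and -0.996.

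**Figure D4:**
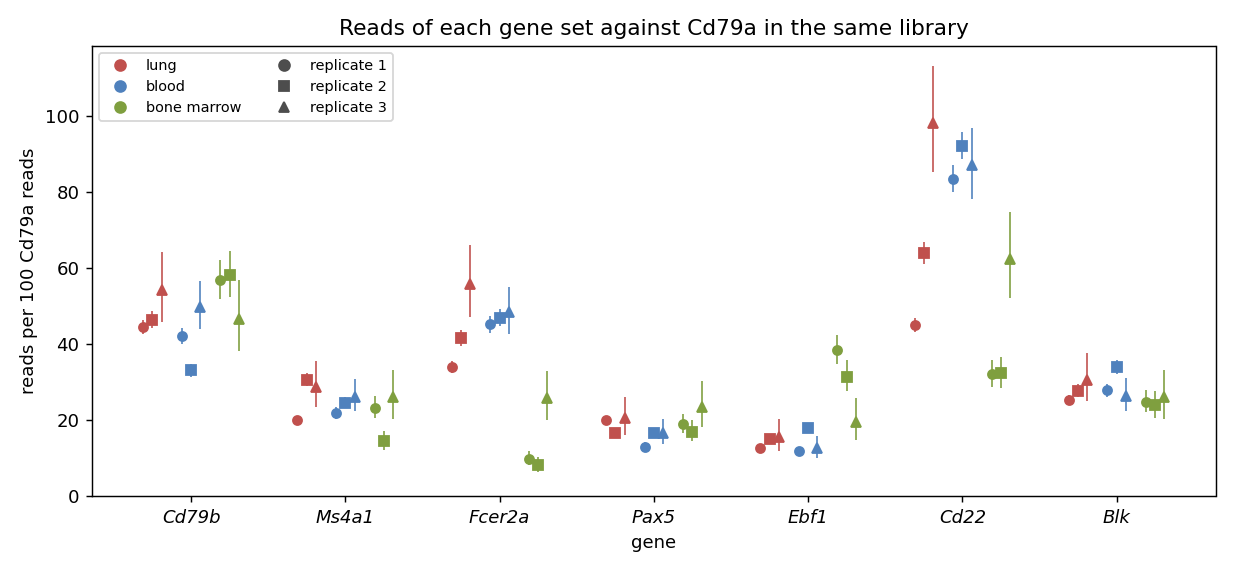
Reads of 7 genes per 100 Cd79a reads in each library, with lung, blood and bone marrow from left to right, marker shapes for replicates 1 to 3 and bars for 95% Wilson intervals of counting error. Fcer2a lies between 34.1 and 55.8 in lung and between 45.2 and 48.5 in blood, above 8.14 to 25.7 in bone marrow, and Ebf1 is the reverse.

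Rag1 and Myb, of the precursor list, were lower in lung and in blood than in bone marrow. Rag1, a subunit of the recombinase that assembles immunoglobulin and T-cell receptor genes, had 11, 8 and 0 reads in lung, 5, 0 and 0 reads in blood and 605, 510 and 32 reads in bone marrow. Its fall passed in lung over bone marrow (fitted log2 fold change -6.06 ± 1.46 SE, edgeR adjusted p = 0.0111) and in blood over bone marrow (-7.81 ± 1.64, edgeR adjusted p = 0.0101), and in each of 9 fits that left out 1 library. Both calls were lost under limma-voom. The size of such a fit depends on the prior count. Myb, a transcription factor of blood progenitors of several lineages, stood at 3.29, 3.93 and 1.07 CPM in lung, 1.37, 3.39 and 0.57 CPM in blood and 36.3, 27.7 and 9.38 CPM in bone marrow, and was lower in both tissues (edgeR adjusted p = 0.0125 and 0.0107). Of the 9 precursor genes tested, 1 passed higher (Cd93, also a gene of other cells) and 3 lower (Rag1, Myb and Dnajc7) in lung over bone marrow. In blood over bone marrow 0 passed higher and 3 lower (Rag1, Myb and Cd93). Over all genes 15.6% were called higher and 22.6% lower in lung over bone marrow, and 8.34% and 13.1% in blood over bone marrow. The medians of the precursor list were -0.21 and -0.36. The call of Dnajc7, a widely used chaperone gene, was lost in 7 of 9 fits without 1 library.

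Some precursor genes were too rare to be tested and were chosen here after their values were seen. The sum of all 14 precursor genes was not lower in lung than in bone marrow. It was 328, 334 and 397 CPM in lung and 326, 284 and 235 CPM in bone marrow. In blood it was 166, 214 and 159 CPM. Igll1, a surrogate light chain gene, had 45, 42 and 3 reads in bone marrow and none in lung or blood, where 3 reads correspond to 0.0589 to 0.0714 CPM. Vpreb1, its partner, had 0, 5 and 1 reads in blood, none in lung, and 41, 36 and 8 reads in bone marrow. Rag2, the other recombinase subunit, had 26, 12 and 0 reads in bone marrow and none elsewhere. Vpreb3 and Spib belong to the other B-cell genes and not to the precursor list. Vpreb3 was tested and did not pass. Against Cd79a it had 2.88, 1.94 and 1.56 reads per 100 in lung, 2.36, 2.44 and 2.82 in blood and 17.0, 14.8 and 4.89 in bone marrow. Spib, an Ets factor of B cells and plasmacytoid dendritic cells, had 25.6, 31.4 and 34.5 in lung, 28.2, 27.2 and 25.8 in blood and 84.3, 85.0 and 55.0 in bone marrow. In both genes bone marrow replicate 3 lay between its own tissue and the other two, as for Fcer2a and Ebf1. Bone marrow replicate 3 was also the bone marrow library highest in lung epithelial transcripts, and their part in this was not tested.

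Genes of mature B cells outside the 8 behaved in part like Fcer2a. Cr2, which encodes the complement receptors CD21 and CD35, stood at 13.3, 12.8 and 1.91 CPM in lung, 18.0, 14.1 and 2.02 CPM in blood and 0.50, 0.25 and 0.72 CPM in bone marrow. It was higher in lung (log2 fold change 4.25 ± 0.98 SE, edgeR adjusted p = 0.00964) and in blood (4.54 ± 0.99, edgeR adjusted p = 0.0129) than in bone marrow. The call in blood was lost without bone marrow replicate 1 or 2, with an adjusted p of up to 0.0597. Both calls were lost under limma-voom and under limma on log2(FPKM + 1). Fcmr, the IgM Fc receptor gene, stood at 46.0, 45.3 and 3.55 CPM in lung, 42.5, 45.2 and 7.63 CPM in blood and 4.98, 2.74 and 3.84 CPM in bone marrow. Lung replicate 3 lay among the bone marrow libraries, and the calls in lung and blood (edgeR adjusted p = 0.0318 and 0.0480) were lost without replicate 1 or 2 of lung or any 1 bone marrow library, and in blood also without blood replicate 1 or 2, with an adjusted p of up to 0.111 in lung and 0.158 in blood. With the replicate block both Fcmr calls were lost.

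Of the 27 other B-cell genes tested, 6 passed higher in lung over bone marrow (Cr2, Fcmr, Cxcr5, Fcrl5, H2-Ob and Rasgrp3) and 5 in blood over bone marrow (Cr2, Fcmr, Fcrl1, H2-Ob and Rasgrp3), with none lower, where 15.6% and 8.34% of all genes were called higher. The medians were 1.16 and 1.20. DESeq2 called 11 higher and 1 lower in lung, and 13 higher in blood, while limma-voom called 0 in lung and 1 in blood. Of all genes, DESeq2 called 23.3% higher in lung and 11.8% in blood, and limma-voom 11.4% and 7.68%. With the replicate number as a block the counts were 12 higher and 2 lower in lung over bone marrow, and 16 higher and 0 lower in blood over bone marrow, but both calls of Rasgrp3 were lost (adjusted p = 0.0649 in lung and 0.0991 in blood). The block called 18.2% of all genes higher in lung and 12.1% in blood. Without 1 library the call of Rasgrp3 was lost in 4 of 9 fits in lung and 6 of 9 in blood, that of H2-Ob in 5 of 9 and 6 of 9, and those of Cxcr5 and Fcrl5 in lung in 5 of 9 and 7 of 9, always including the fits without lung replicate 1 or 2 (lung) or blood replicate 1 or 2 (blood) and without bone marrow replicate 1 or 2. Fcrl1 in blood kept its call in all 9 fits. In lung over blood 1 passed, Fcrl1, lower in lung (edgeR adjusted p = 0.0269), and the call was lost without lung replicate 1, any 1 blood library or bone marrow replicate 2 (up to 0.0940). MHC class II genes, which B cells share with other antigen-presenting cells, passed higher in 8 of 9 in lung over bone marrow and in 4 of 9 in blood over bone marrow, with Cd74 at 1254, 944 and 219 CPM in lung, 606, 608 and 94.0 CPM in blood and 96.3, 43.9 and 82.6 CPM in bone marrow. The counts in lung and blood were 7 and 1 of 9 with the block, 4 and 1 with limma-voom, and 9 and 9 with DESeq2 and with replicates 1 and 2 alone. For the block, limma-voom and DESeq2 the shares of all genes called higher are given above. With replicates 1 and 2 alone they were 28.1% in lung and 11.9% in blood. Without 1 library H2-Oa in lung lost its call in 7 of 9 fits, H2-DMb1 in 5, and H2-Ab1 in blood in 6.

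The signalling genes downstream of the receptor did not follow the members as a list. Their 18 genes summed to 5361, 5806 and 8650 CPM in lung, 6261, 5737 and 7372 CPM in blood and 5512, 5671 and 6644 CPM in bone marrow, highest in replicate 3 of each tissue. Syk, the kinase recruited by CD79 chains and by many myeloid receptors, led with 2030, 2324 and 3434 CPM in lung. In lung over blood 4 passed higher and 5 lower, in lung over bone marrow 3 higher and 6 lower, and in blood over bone marrow 1 higher (Nfatc1) and 1 lower (Bcl10), where 28.9%, 38.2% and 21.4% of all genes were called in either direction. With the replicate block the counts were 4 and 5, 6 and 8, and 4 and 2. The block called 4751, 5973 and 3990 of all 13510 genes in either direction in the same comparisons. Many of the edgeR calls of the 18 genes without the block rested on single libraries. In lung over blood the call of Btk was lost in 8 of 9 fits without 1 library, that of Vav1 in 7, Cd81 in 6, Syk in 3 and Ptpn6 in 1, and in lung over bone marrow that of Ptpn6 in 8, Btk and Vav1 in 7, Plcg2 in 6, Pik3cd in 5 and Syk and Bcl10 in 1. In blood over bone marrow Nfatc1 lost its call in 6 and Bcl10 in 5. Pik3ap1 and Malt1, higher in lung in both comparisons, and Pik3cd and Nfatc1, lower in lung over blood, kept theirs in all 9. Among the 18, Blnk, the adaptor that links Syk to phospholipase C in B cells, resembled the members at 20.9, 18.5 and 2.51 CPM in lung, 20.3, 16.8 and 2.36 CPM in blood and 8.13, 5.10 and 1.10 CPM in bone marrow. It was named after its values were seen and passed no test.

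Of the 9 plasma cell genes tested, 2 passed higher (Jchain and Prdm1) and 1 lower (Xbp1) in lung over blood, where 28.9% of all genes were called. Jchain, which encodes the joining chain of secreted IgA and IgM, stood at 17.9, 8.93 and 0.89 CPM in lung, 0.87, 0.89 and 0.41 CPM in blood and 7.18, 2.94 and 0.92 CPM in bone marrow. It was higher in lung than in blood (log2 fold change 3.67 ± 1.06 SE, edgeR adjusted p = 0.0303), and no lung value was below a blood value. The call was lost without lung replicate 1 or 2 or without any 1 of the blood libraries, with an adjusted p of up to 0.109. The Jchain call was also lost under limma-voom and under limma on both FPKM scales. Prdm1 and Xbp1 are widely used outside plasma cells, and Prdm1 was highest in lung replicate 3, at 60.1 CPM, the lung library lowest in Jchain.

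The immunoglobulin constant genes were read in the lung and blood libraries' own files, which give RSEM expected counts and TPM. They are not among the genes of the table that covers all 3 tissues, and bone marrow was not analysed here for them. Igkc, the kappa light chain constant gene (chr6:70726435-70726966, plus strand), had 1225, 845 and 50.5 TPM in lung and 667, 630.5 and 99.0 TPM in blood. Ighm, the IgM heavy chain gene (chr12:113418558-113422730, minus strand), had 718 TPM, 645 and 185 TPM in lung and 602, 696 and 386 TPM in blood. Replicate 3 was again lowest in both tissues, but less so for Ighm than for the members or the other chains. Ighm had 253, 339 and 1538 counts per 100 Igkc counts in lung and 405, 474 and 1677 in blood. Ighd, the IgD gene of naive B cells, had 89.0, 96.3 and 6.36 TPM in lung and 97.6, 131 and 25.4 TPM in blood, in step with the members.

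Igha, the IgA heavy chain gene (chr12:113254830-113260236, minus strand), was named after its values were seen. It had 65.9, 38.8 and 1.89 TPM in lung and 13.3, 17.1 and 2.65 TPM in blood. Lung replicates 1 and 2 were above all blood libraries and lung replicate 3 was below them. Against Cd79a expected counts, every lung library (27.4, 20.0 and 16.3 per 100) was above every blood library (7.29, 8.67 and 8.53). Of the 9 constant genes tested, 0 passed in lung over blood by edgeR, with 0 at an unadjusted p under 0.05, where 22.3% of 14188 genes were called. DESeq2 also called 0. Igha had a log2 fold change of 1.81 ± 1.07 (SE; edgeR adjusted p = 0.270), and with the replicate number as a block 1.40 and an adjusted p of 0.0463. Kappa made up 80.9%, 78.3% and 71.8% of light chain constant counts in lung and 77.0%, 72.6% and 75.7% in blood, with 95% Wilson intervals of 67.2% to 75.9% in lung replicate 3 and 72.0% to 79.0% in blood replicate 3. All blood libraries lay within the range of the lung libraries.

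**Figure D5:**
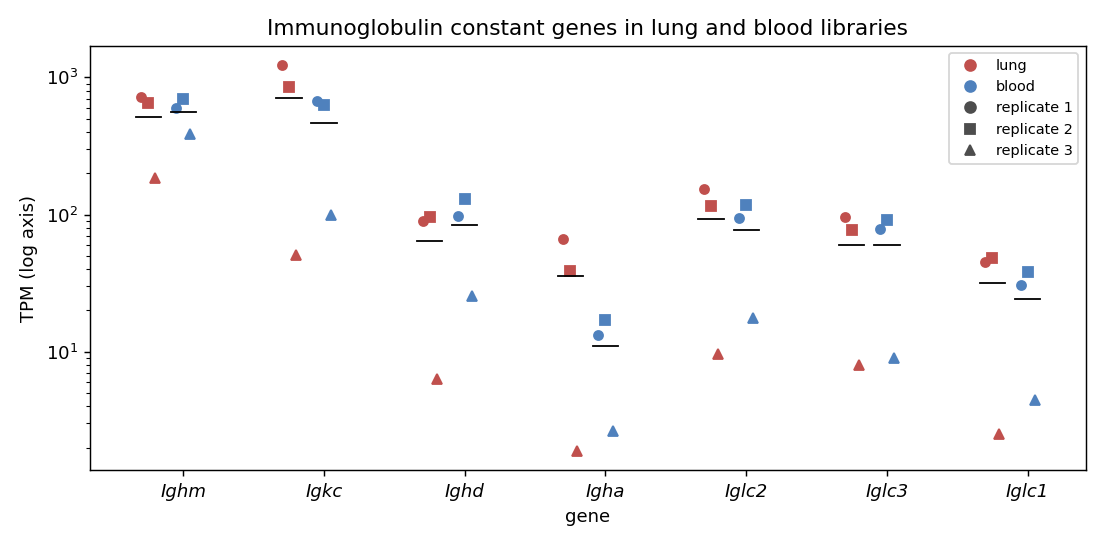
TPM of 7 immunoglobulin constant genes in lung and blood libraries, on a log axis, with lung left of blood, marker shapes for replicates 1 to 3 and a bar at the mean of 3. Replicate 3 is the lowest of its tissue for every gene, and Ighm has the smallest drop, to 185 TPM in lung and 386 TPM in blood.

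Transcript forms gave little more. Of the reads of Fcer2a 89.6% were assigned to the transcript of 2241 bases, but in bone marrow replicate 1 that form had 54 reads and another, of 2121 bases, had 72, while the 2121-base form had 0 reads in bone marrow replicates 2 and 3. The reads of Cd22 were split mainly between a coding transcript of 4097 bases (66.6%) and a non-coding one of 4130 bases (26.3%). The split was 409 and 10 reads in bone marrow replicate 1 and 39 and 275 reads in bone marrow replicate 2. Such changes between replicates limit what the authors' estimates say on single forms, and the gene sums were used throughout.

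The genes most like the members were looked for over all 9 libraries, by Pearson's r of log2 CPM with the mean profile of the 8. Among the closest outside the list were Slc9a7 (0.993), Cd2ap (0.992), Cd48 (0.991), Ifi203 (0.991), Ralgps2 (0.990), St6gal1 (0.988) and Tnfrsf13c (0.988). Tnfrsf13c encodes the receptor for the B-cell survival factor BAFF, and St6gal1 the enzyme that makes the sialylated ligand of CD22. Among the members r was highest for Blk (0.999) and lowest for Ebf1 (0.909), Fcer2a (0.920) and Cd22 (0.956). The mean profile contains each member itself, which raises its r, so members and outside genes are not on a par. The 9 points share libraries and tissues, and 505 of 13510 genes had r above 0.9, so the order is a description of these libraries.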

How the data were processed

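Polyadenylated RNA of FACS-sorted neutrophils was sequenced after TruSeq preparation, per the labels, which name a standard and a stranded kit. The strand setting of the counting is not stated, so a gene and its antisense partner cannot be told apart. The submitters' processing notes name Bowtie2, STAR, StringTie 2.1.3b, RSEM, DESeq2 and mm10, without roles. The deposited series table gives a whole-number read count and an FPKM per RefSeq transcript, per the file headers. Counts of 36780 transcripts were summed by Entrez gene. The deposited lung and blood files give RSEM expected counts and TPM of 55450 genes, and expected counts were rounded before testing. Deposited column numbers run 1 above the title numbers used here.

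Counts passed edgeR 4.0.16 filterByExpr, TMM scaling and a robust quasi-likelihood fit of all 9 libraries, with two-sided tests and Benjamini-Hochberg adjustment over 13510 genes at 0.05. The common biological coefficient of variation was 0.448. SE is the absolute log2 fold change over the square root of F. The fit was tested on simulated data. Alternatives used DESeq2 1.42.0 and limma 3.58.1 (R 4.3.3, Python 3.11.15), log2(FPKM + 1) and log2(FPKM + 0.1), other scalings and filters, and left-out libraries. Deviations of same-numbered libraries correlated at 0.114 to 0.539 in all 9 pairs, against -0.581 to 0.496 in 18 others, so the ranges overlapped. No label ties a number to an animal or day. The main fit was therefore unpaired, and the replicate number entered as a block only in an alternative fit.

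The members and the 16 gene lists were chosen with earlier results of these data known. Named are all 8 members, of each other list at most the 4 genes of highest mean level and those passing a test, Col3a1 and Ace where described, and the 8 genes most like the members, of which 1 is not reported here. Blnk, Igll1, Vpreb1, Rag2, Vpreb3, Spib and Igha fall outside this rule and were named after their values were seen, as was Bank1. Intervals and 3-read floors cover counting error only.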

Additional observations from a re-analysis of the deposited data

Results flagged for a closer look

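Reads on immunoglobulin variable segments lie outside the comparisons above and exceeded the limit that a count of 0 allows (3 counts). Summed over 348 segments, the RSEM expected counts were 3247, 2556 and 372 in lung replicates 1 to 3 and 2166, 2694 and 567 in blood replicates 1 to 3. Replicate 3 was the lowest in both tissues, as it was for the 8 B-cell transcripts.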

How the results depend on the processing

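The direction of all 8 B-cell transcripts was the same, higher in lung and in blood than in bone marrow, in every alternative fit. The number called was not. Against the 2 called by edgeR in each comparison, blood over bone marrow gave 4 with DESeq2, 0 with limma-voom, 1 with limma on log2(FPKM + 1), 6 with the replicate block, 7 with replicates 1 and 2 alone and 0 to 2 without 1 library. Lung over bone marrow gave 6 with DESeq2, 0 with limma-voom, 1 with no low-count filter, 0 with log2(FPKM + 1), 1 with log2(FPKM + 0.1), 7 with the replicate block, 7 with replicates 1 and 2 alone and 0 to 7 without 1 library. Lung over blood gave 0 in each. The block changed no other call of a member. The cause of these changes was not tested.

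Over all genes, the calls without 1 library were 1236 to 3965 in blood over bone marrow, 1922 to 5852 in lung over blood and 3258 to 6984 in lung over bone marrow. With replicates 1 and 2 alone they were 6062 in lung over blood and 7780 in lung over bone marrow. Among immunoglobulin constant genes the block called 1, Igha, and 0 were called without 1 library.

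Fold changes in lung over blood, all near 0, changed sign. Blk (-0.05) became 0.0066 with DESeq2, 0.0074 with its size factors in edgeR, 0.13 with upper-quartile scaling, 0.0036 with the CPM filter and 0.079 with RSEM counts. With limma-voom, the block, log2(FPKM + 1) and log2(FPKM + 0.1), Cd79a (0.15) became -0.13, -0.046, -0.21 and -0.25, and Ebf1 (0.06) became -0.00071, -0.071, -0.013 and -0.15. Under the 2 FPKM settings Ms4a1 (0.24) became -0.022 and -0.13, and under the second Cd79b (0.39) became -0.022. Fcer2a (-0.13) became 0.055 with upper-quartile scaling. With RSEM counts Pax5 (0.47) became -0.10 and Cd22 (-0.52) became 0.024. With the block Ighm (0.06) became -0.052. Without 1 library the ranges were -0.60 to 0.43 (Blk), -0.39 to 0.64 (Cd79a), -0.48 to 0.55 (Ebf1), -0.65 to 0.33 (Fcer2a), -0.28 to 0.72 (Ms4a1), -0.11 to 0.87 (Cd79b), -0.18 to 0.955 (Pax5), -0.21 to 0.36 (Ighm), -0.14 to 0.885 (Iglc2), -0.38 to 0.62 (Iglc3), -0.72 to 0.24 (Ighd) and -0.0012 to 1.01 (Iglc1).

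The lowest counts, 60 reads of Ebf1 in lung replicate 3 and in bone marrow replicate 3, limit single-library ratios. Ratios to Cd79a without 1 library, and with RSEM counts, were alternatives chosen after seeing the data, as were the fits for genes of the other lists.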
